A study of Homo sapiens with 8 samples.

Results

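The chromosome 6 histone cluster is the main block of human genes for the core and linker histones, and its transcripts were compared between a liver cancer cell line and a derivative carrying a full-length Axin1. Members were chosen by name and position: protein-coding histone genes of the cluster on the short arm of chromosome 6 (first to last member chr6:25726132-27893843, GRCh38) whose symbol begins with H1-, H2AC, H2BC, H3C or H4C, or whose older name begins with HIST1. This gave 55 of the 58206 genes in the count table, namely 6 H1, 12 H2A, 15 H2B, 10 H3 and 12 H4 genes. No count entered that rule, but the set itself was selected on results of these same counts, the levels and the Axin1 contrast of earlier work, so counts and medians over the members are given as description.

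The cells were Alexander1, an epithelial line from a hepatocellular carcinoma. In the parental cells (wt, Axin1 -), according to the submitters, the part of AXIN1 that binds GSK3 is deleted and the Wnt pathway is constantly active. The other group (Axin1 +) is a stable derivative made by retroviral transfer of an Axin1 plasmid with clonal selection in hygromycin B, so clone and Axin1 cannot be told apart, and how many clones were used is not given in the sources used here. RNA of 4 libraries per group was sequenced after mRNA library preparation, with no drug, dose or time course. The labels do not say that replicates were separate cultures, so p-values measure the spread between these libraries, which may be technical.

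Total counts were 11232951 to 15263761 in the parental libraries and 12372436 to 26400782 in the Axin1-labelled libraries. AXIN1 read 55.3, 52.8, 47.4 and 54.2 CPM (counts per 1000000, with totals scaled by library composition) in the parental libraries and 47.6, 48.0, 48.2 and 37.7 in the Axin1-labelled ones. The log2 fold change was -0.21 (SE 0.12, edgeR adjusted p = 0.267), so the transcript was not higher in the libraries labelled Axin1 +, and each direction given here rests on the labels. All 12 hepatocyte markers were at 1 CPM or above in every library, as were 0 of 6 fibroblast, 1 of 4 endothelial and 0 of 4 blood cell markers. On principal components, parental replicate 1 stood apart from the other parental libraries, and Axin1-labelled replicate 1 lay nearest the parental ones. Of 14289 genes tested, 2738 (19.2%) differed at an edgeR adjusted p under 0.05, 1485 of them higher (10.4%) and 1253 lower (8.77%) in the Axin1-labelled cells. Higher calls were 54.2% of all calls, and 66.5% when libraries were scaled by total count alone.

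Nucleosomes wrap DNA around an octamer of histones H2A, H2B, H3 and H4, and the linker histone H1 binds where the DNA enters and leaves. Most of the genes in the chromosome 6 cluster are replication-dependent: they are transcribed mainly in S phase from many near-identical copies, so that new DNA can be packaged as it is made. Their usual mRNAs lack a poly(A) tail and end in a conserved stem-loop bound by SLBP, while some of the same genes also give longer, polyadenylated transcripts that run past the stem-loop. Preparation of mRNA libraries usually selects poly(A), so the levels below are those of the transcripts retained by that step.

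The stem-loop, 6 paired bases on either side of a loop of 4, was searched in the 24 members whose GENCODE transcripts extend past the stop codon and was found in 19. The forms are printed because they show which annotated gene models contain the processing signal. Capitals mark the paired stem.
The most frequent form, in 9 members of the H2A, H2B and H3 families: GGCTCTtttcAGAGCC
The form in H4C2, H4C5, H4C8 and H4C11: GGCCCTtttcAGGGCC
The form in H2BC4, H2BC5, H2BC7 and H3C8: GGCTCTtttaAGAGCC
The form in H3C6: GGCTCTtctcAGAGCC
The form in H2AC11: GGCTCTtttcAGGGCC
The H4 form differs from the most frequent one within the stem, and the 4 members that carry it are all H4 genes. The stem-loop lay 23 to 51 bases after the stop codon. The annotated transcript went on for 6 to 1862 bases beyond it, and for more than 300 bases in 12 of the 19. The other 31 members have no bases annotated after the stop codon in their coding transcripts of GENCODE release 29. Which exons the authors counted in is not given in the sources used here.

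Members made up 0.00562 to 0.0109% of all counts in a library. Of the 55, 48 had at least 1 count. The 7 genes at 0 in all 8 libraries were H2BC1, H1-1, H3C4, H2AC7, H4C6, H4C7 and H4C13; a count of 0 allows up to 3 counts, or 0.108 to 0.267 CPM depending on the library, by counting error only. H2BC1 encodes a variant best known from testis. Another 10 members had at most 3 counts in any library, and 24 more were too low to test. The 14 members that passed the expression filter held 92.9% of the 11339 counts of the whole set. Passing that filter depends on level, so the tested genes do not stand for all members.

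The members were also grouped by annotated 3′ end. With a limit of 200 bases after the stop codon, 16 members had an extended end, and 11 of these were tested; their median total over the 8 libraries was 247.5 counts. Among the 31 members with no bases annotated after the stop codon (marked coding sequence only), H1-2 and H2BC12 were tested. The median total of these 31 was 13 counts. They nevertheless held 48.1% of all member counts, nearly all through H1-2 and H2BC12, and the extended-end genes held 45.1%. H4C3 was the tested gene among the 8 members with a short annotated end. In the plot of total counts in order along the chromosome, tested genes are scattered among neighbours with few counts. How much of this came from transcript level and how much from annotated length was not tested.

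**Figure D1:**
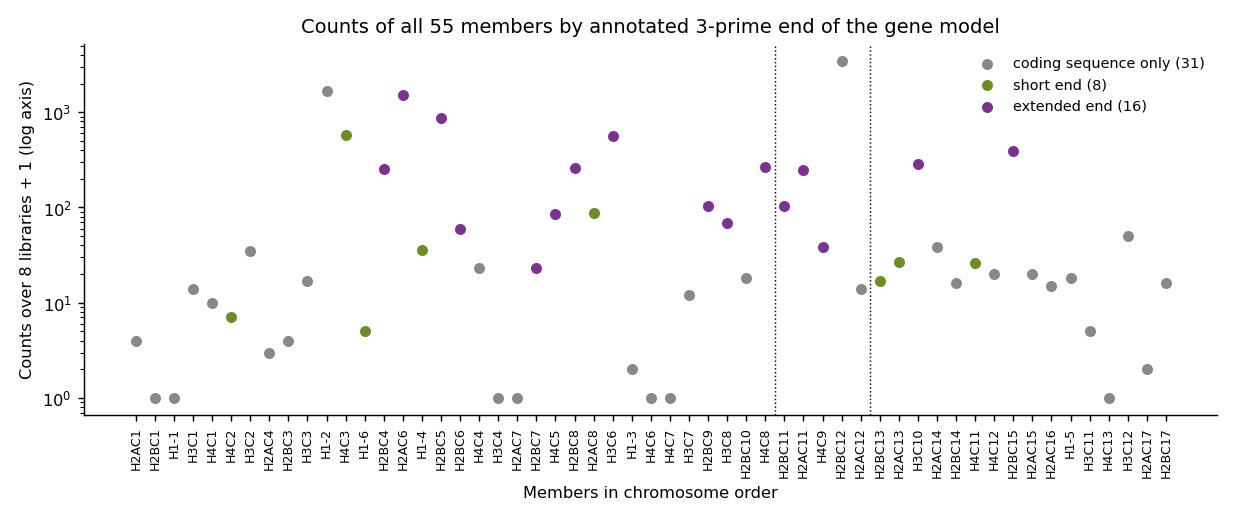
Total counts over the 8 libraries for the 55 members in chromosomal order (log axis of count + 1), coloured by annotated 3′ end, with dotted lines between the 3 blocks. H2BC12, H1-2 and H2AC6 stand highest, and 7 members are at 0.

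H2BC12, which encodes a core histone H2B, had the highest level of the cluster. It read 15.2, 25.7, 25.8 and 24.8 CPM in the parental libraries and 24.8, 27.6, 29.9 and 25.1 in the Axin1-labelled libraries. The groups overlapped and parental replicate 1 was low. The log2 fold change was 0.23 (SE 0.18, 95% interval -0.17 to 0.62, edgeR adjusted p = 0.406), so a difference was not detected, and the interval reaches 0.62 on the log2 scale. Without parental replicate 1 the value was 0.072 (adjusted p = 0.730). H2BC12 alone supplied 24.2 to 36.7% of the member counts of a library, and with H1-2 and H2AC6 it supplied 45.2 to 61.4%. Per kb of exon, the parental and Axin1-labelled libraries together averaged 65.3 CPM for H2BC12, 18.8 for H1-2 and 10.3 for H4C3.

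Near-identical copies limit how some of these genes can be read. Of the 50-base words in H2BC12, 74.1% also occur in another gene, most often in H2BFS copies on chromosome 21, and the reads of such genes may be shared or discarded by the authors' counting. Both H2BFS entries had 0 counts in every library. In 8 members more than 50% of words are shared, among them H2AC13 with H2AC14 and H4C11 with H4C12; H3C4 (100%) and H2AC7 (98.0%) are covered by an overlapping gene on the same strand. The share was under 15% in 46 members and 0 in 29. H1-2 and H4C3 shared no word with another gene, and H2AC6 shared 0.421%. Whether the authors' counting used strand is not given in the sources used here.

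Among the tested members, 2 rose and 0 fell in the Axin1-labelled libraries (14.3%, against 19.2% of all genes tested). They were H1-2 and H2AC6. DESeq2 called 2 members higher and 0 lower. Limma-voom called 1 higher and 0 lower, and H1-2 missed its threshold (limma-voom adjusted p = 0.0713). With an offset for GC content and length, edgeR called 2 higher and 1 lower (H2BC15, adjusted p = 0.0482). In the plain edgeR fit the fold change was above 0 for 9 members and below 0 for 5. The median log2 fold change was 0.36, beside 0.0026 over all genes tested. An unadjusted p under 0.05 was met by 3 members (H1-2, H2AC6 and H2BC15). The share of members called (14.3%) rests on 14 tested genes and was not tested against that of all genes (19.2%). With the replicates numbered 1 of both groups left out, a choice made after seeing the data, 4 members were called higher, H2BC5 (adjusted p = 0.0444) and H3C6 (adjusted p = 0.0488) being the additional ones.

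**Figure D2:**
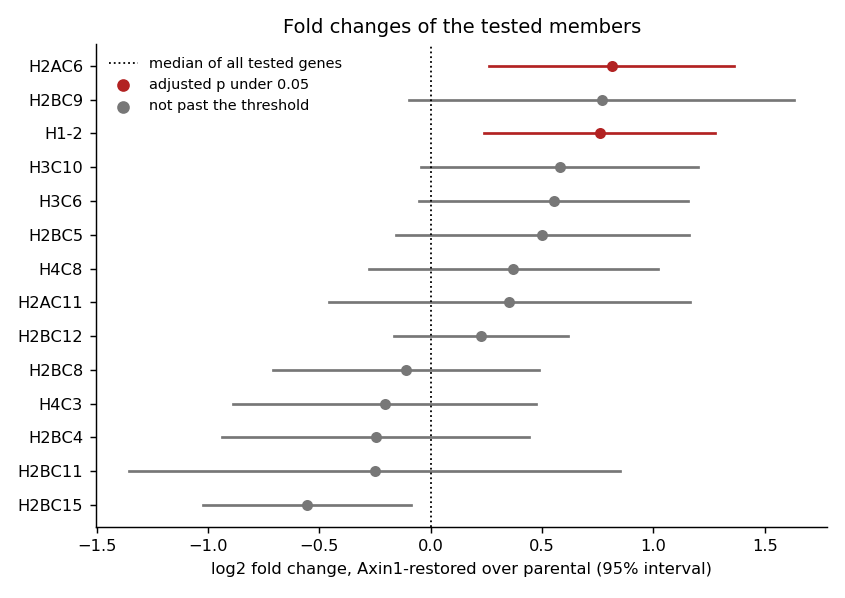
Log2 fold change, Axin1-labelled over parental, of the 14 tested members with 95% intervals from edgeR; red marks an adjusted p under 0.05 and the dotted line the median of all tested genes. H2AC6 (0.81) and H1-2 (0.76) are red, and H2BC15 (-0.56) is grey with an interval below 0.

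H1-2, which encodes a linker histone, rose in the Axin1-labelled libraries. Its gene lies on the minus strand at chr6:26055787-26056428 and is annotated as 1 coding exon. It read 8.63, 10.1, 8.91 and 8.16 CPM in the parental libraries and 12.9, 23.8, 12.7 and 11.6 in the Axin1-labelled libraries. All 4 Axin1-labelled libraries lay above all 4 parental ones, and replicate 2 was high by a wide margin. Group means were 8.95 ± 0.821 (SD, n = 4) and 15.3 ± 5.71 (SD, n = 4). The log2 fold change was 0.76 (SE 0.24, 95% interval 0.24 to 1.28, edgeR adjusted p = 0.0449). Without Axin1-labelled replicate 2 it was 0.47 (adjusted p = 0.0897), and the call was also lost without any parental replicate and without Axin1-labelled replicate 3 or 4 (adjusted p = 0.0528 to 0.0951 over these 7 omissions).

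The other H1 genes were near the floor. H1-4 had 1, 3, 2 and 2 counts in the parental libraries and 7, 4, 9 and 7 in the Axin1-labelled ones. Total counts differ between libraries, and the scaled means of H1-4 were 0.153 CPM in the parental and 0.325 CPM in the Axin1-labelled group. H1-5 had at most 4 counts in any library, and H1-3 had 1 count in all. The summed H1 level was 9.19 ± 0.876 CPM (SD, n = 4) against 15.8 ± 5.75 (SD, n = 4), a log2 ratio of 0.78 with no overlap, and 0.49 without Axin1-labelled replicate 2. That sum is nearly all H1-2.

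H2AC6 encodes a core histone H2A and also rose. It is on the plus strand at chr6:26124145-26139116 and its exons include an extended, spliced end. It read 4.54, 9.75, 9.09 and 6.80 CPM in the parental libraries and 12.6, 16.8, 10.2 and 13.5 in the Axin1-labelled libraries. The groups did not overlap, although the lowest Axin1-labelled library was only slightly above the highest parental one. Means were 7.54 ± 2.37 and 13.3 ± 2.73 CPM (SD, n = 4 each). The log2 fold change was 0.81 (SE 0.25, 95% interval 0.26 to 1.36, edgeR adjusted p = 0.0431). Leaving out any library other than parental replicate 1 ended the call, with fold changes that stayed positive. The edgeR adjusted p ran from 0.05, at the threshold, without parental replicate 2 (log2 fold change 0.96) to 0.106.

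H2AC11, the other tested H2A gene, had 0.35 on the log2 scale (SE 0.37, edgeR adjusted p = 0.539). H2AC8 was not tested and averaged 0.491 and 0.729 CPM. The 12 H2A genes together read 6.32, 12.4, 11.9 and 9.73 CPM in the parental libraries and 16.2, 19.7, 14.4 and 17.1 in the Axin1-labelled ones. The groups did not overlap in that sum, the log2 ratio was 0.74, and H2AC6 carried most of it.

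H2B genes gave 7 of the 14 tested members and none passed the threshold. H2BC5 read 7.92, 5.21, 5.26 and 2.72 CPM in the parental libraries and 6.96, 9.91, 7.05 and 6.01 in the Axin1-labelled ones, which gave 0.50 on the log2 scale (SE 0.30, edgeR adjusted p = 0.267). H2BC4 read 2.05, 2.78, 1.25 and 1.86 against 2.01, 1.32, 1.97 and 1.37 CPM, a change of -0.25 on the log2 scale (SE 0.31, edgeR adjusted p = 0.616). Both genes overlapped between groups. The remaining fold changes on the log2 scale were 0.77 for H2BC9 (SE 0.39), -0.11 for H2BC8 (SE 0.27) and -0.25 for H2BC11 (SE 0.50), with edgeR adjusted p-values of 0.197, 0.806 and 0.758.

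H2BC15 was the only tested member with every Axin1-labelled library below every parental library, and it is described because of that, after its values were seen. It read 3.65, 3.52, 3.92 and 3.36 CPM in the parental libraries and 2.33, 2.56, 2.56 and 2.38 in the Axin1-labelled libraries. Its spread within groups was small, with means of 3.61 ± 0.235 and 2.46 ± 0.120 CPM (SD, n = 4 each). The log2 fold change was -0.56 (SE 0.21, 95% interval -1.02 to -0.09), which missed the threshold after adjustment (edgeR adjusted p = 0.0913). Its exons overlap H2AC15 on the other strand and H2AC16 on its own, so the reads may not all be its own. With an offset for GC content and length the value was -0.62 and passed (adjusted p = 0.0482). Summed over all 15 genes, H2B read 37.8 ± 3.93 against 43.1 ± 3.39 CPM (SD, n = 4 each), a log2 ratio of 0.19 with overlapping groups.

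H3 and H4 form the central tetramer of the nucleosome, and none of their 4 tested genes passed. H3C10 read 1.87, 1.90, 1.69 and 1.07 CPM in the parental libraries and 2.01, 2.97, 2.37 and 2.46 in the Axin1-labelled ones; the groups did not overlap, but the log2 fold change of 0.58 (SE 0.28) had an edgeR adjusted p of 0.177. H3C6 read 3.83, 3.72, 3.12 and 2.43 against 3.52, 6.52, 3.70 and 5.58 CPM, which overlapped and gave 0.55 on the log2 scale (SE 0.28, edgeR adjusted p = 0.187). Groups without overlap were thus seen in 3 tested members above (H1-2, H2AC6 and H3C10) and 1 below (H2BC15), where 12.7% of all genes tested lay separately above and 11.2% below.

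H4C3, the H4 gene with the highest level, read 6.85, 5.01, 3.12 and 4.08 CPM in the parental libraries and 2.83, 6.19, 3.84 and 3.83 in the Axin1-labelled ones. The groups overlapped throughout (log2 fold change -0.21, SE 0.31, edgeR adjusted p = 0.676), and the sign turned without parental replicate 1 (0.0058). For H4C8 the change was 0.37 (SE 0.30, edgeR adjusted p = 0.409). H3C2 and H4C4 were too low to test, at 2 to 8 counts and 0 to 7 counts a library. The summed H3 level was 6.15 ± 0.936 against 8.81 ± 1.84 CPM and the summed H4 level 7.55 ± 1.17 against 7.97 ± 1.69 CPM (SD, n = 4 each), both with overlap.

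**Figure D3:**
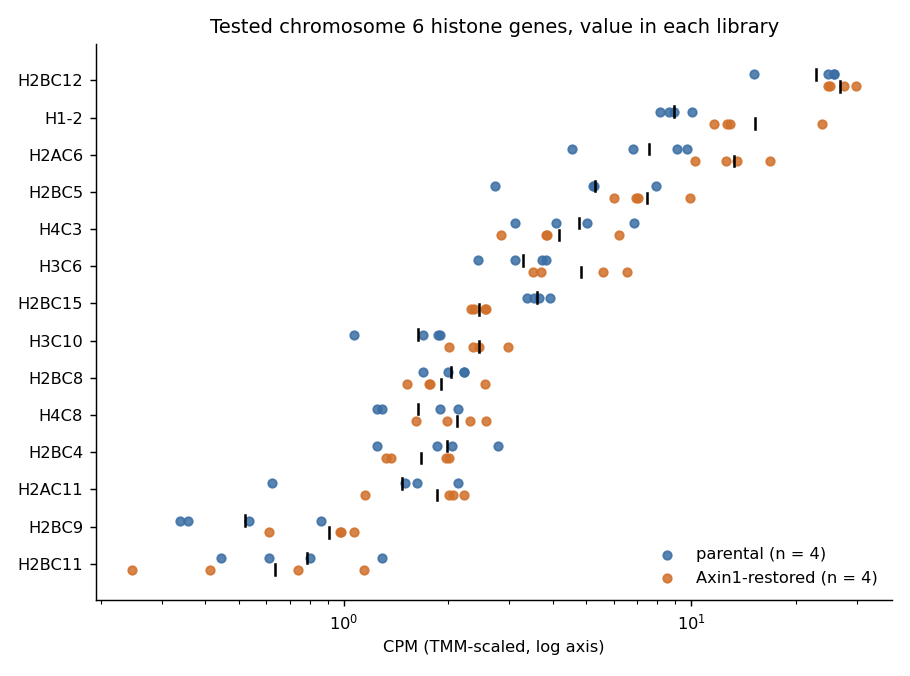
CPM (log axis) of the 14 tested members in each of the 8 libraries, 1 point a library, with black bars at the group means. H1-2 and H2AC6 separate the groups, and H2BC12 is lower in parental replicate 1 (15.2 CPM) than in any other library.

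Added over all 55 genes, members read 62.8, 78.7, 74.0 and 67.7 CPM in the parental libraries and 83.3, 111.1, 89.5 and 86.2 in the Axin1-labelled libraries. Group means were 70.8 CPM in the parental and 92.5 CPM in the Axin1-labelled libraries. Much of that difference lay in the called genes, H1-2 (8.95 and 15.3 CPM) and H2AC6 (7.54 and 13.3 CPM). The sum without those genes was not taken. Every Axin1-labelled sum of all members was above every parental sum, with a log2 ratio of means of 0.39. The ratio was 0.29 without Axin1-labelled replicate 2. By family it was 0.78 for H1, 0.74 for H2A, 0.52 for H3, 0.19 for H2B and 0.08 for H4, and the differences between families were not tested. In bulk RNA after mRNA preparation, more cells in S phase, more histone RNA per cell and a larger retained share of it cannot be told apart.

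**Figure D4:**
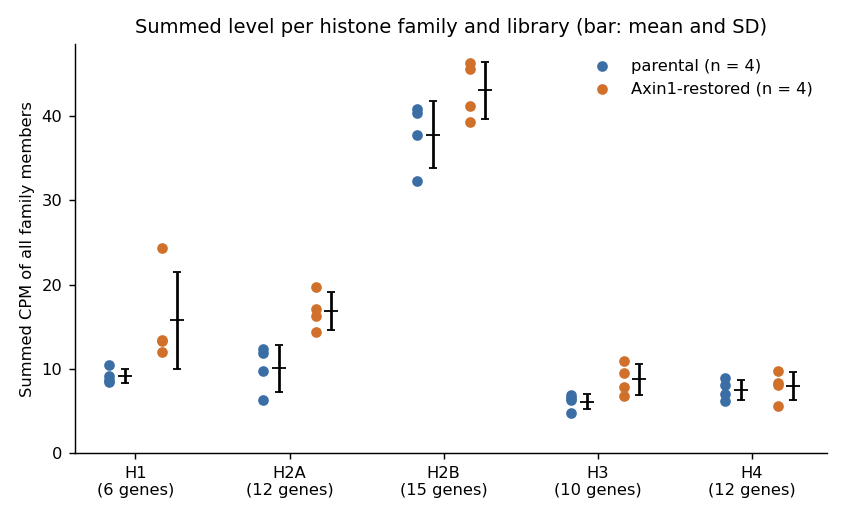
Summed CPM of each histone family in the 8 libraries, with bars for the group mean and SD. The H1 and H2A sums do not overlap between groups, whereas those of H2B, H3 and H4 do.

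Sums were also taken by position, in blocks chosen after seeing the data. The 34 genes of the first block, chr6:25726132-26285638, summed to 38.6 ± 4.42 CPM in the parental and 55.8 ± 12.4 in the Axin1-labelled libraries (SD, n = 4 each). The log2 ratio was 0.53, without overlap. This block held both called genes, H1-2 (8.95 and 15.3 CPM) and H2AC6, and much of the difference lay in them. The block was not summed without them. The second block, 5 genes at chr6:27125897-27147515 that include H2BC12, had a log2 ratio of 0.23, and the third, 16 genes at chr6:27807444-27893843, one of 0.04 on the log2 scale; both overlapped. Many members stand head to head, and 10 such pairs had annotated starts 219 to 357 bases apart. H2BC17 was counted both with H2AC17 (314 bases) and with H3C12 (357 bases), which overlap each other on the same strand. H2BC4 and H2AC6 are 219 bases apart, with means of 1.98 and 1.67 CPM for H2BC4 and of 7.54 and 13.3 CPM for H2AC6 in the parental and Axin1-labelled groups. H2BC12 at 22.9 and 26.8 CPM faces H2AC12 at 0.0527 and 0.0997 CPM. Differences within pairs were not tested.

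Promoters are shown for both members that rose and for H2BC12, the highest, as 250 bases before the RefSeq start (GRCh38.p14), 5′ to 3′ on the gene's strand. Capitals mark the CCAAT box, the TATA motif searched as TATAAA, and ATTTGCAT, the octamer known from H2B promoters, each on either strand.
H1-2, chr6:26056471-26056720, minus strand: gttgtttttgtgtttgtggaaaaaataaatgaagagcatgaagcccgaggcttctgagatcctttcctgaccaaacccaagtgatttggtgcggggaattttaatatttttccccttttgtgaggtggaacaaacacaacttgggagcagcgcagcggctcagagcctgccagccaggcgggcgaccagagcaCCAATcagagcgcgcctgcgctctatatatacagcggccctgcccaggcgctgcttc
H2AC6, chr6:26123922-26124171, plus strand: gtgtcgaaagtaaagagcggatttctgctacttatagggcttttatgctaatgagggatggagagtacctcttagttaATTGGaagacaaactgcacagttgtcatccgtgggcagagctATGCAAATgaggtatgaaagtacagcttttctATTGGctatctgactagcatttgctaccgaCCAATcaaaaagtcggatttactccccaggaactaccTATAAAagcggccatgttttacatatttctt
H2BC12, chr6:27146859-27147108, minus strand: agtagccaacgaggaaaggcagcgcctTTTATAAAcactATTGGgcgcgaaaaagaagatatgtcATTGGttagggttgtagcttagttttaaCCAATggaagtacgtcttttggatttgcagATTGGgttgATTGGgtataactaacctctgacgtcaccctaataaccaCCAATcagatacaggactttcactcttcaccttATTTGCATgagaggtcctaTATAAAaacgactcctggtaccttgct
The H1-2 window held 1 match, a CCAAT 57 bases before the start. The H2AC6 window held 5 matches, with TATAAA at 31 and the octamer, on the other strand, at 130 bases before the start. H2BC12 held 10 matches, 6 of them CCAAT, with TATAAA at 27 and the octamer at 46 bases; TATAAA and its reverse complement overlap further upstream.

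RefSeq promoters of 300 bases (250 before and 50 after the start) were matched for 50 of the 55 members, the others being H4C1, H4C3, H2AC12, H3C11 and H3C12. CCAAT was present in 43 (86.0%), compared with 34.6% of 35116 promoters, and it was in all matched H1, H2A, H2B and H3 genes and in 3 of 10 H4 genes. TATAAA was in 33 (66.0%, against 11.5%). ATTTGCAT was in 22 (44.0%, against 1.77%), of which 9 were H2A, 12 H2B and 1 H3. Paired genes share part of their window, and these matches are letters in a window, not measured binding.

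Other genes of the same span gave 6 higher and 2 lower of 27 tested (29.6%), and the median of these genes was 0.35 on the log2 scale. The butyrophilin gene BTN3A3 rose by a log2 fold change of 1.38 (edgeR adjusted p = 0.00276), BTN3A1 by 1.02 (adjusted p = 0.0134), and HFE, a regulator of iron uptake in the liver, by 0.77 (adjusted p = 0.00539). SLC17A3, a solute transporter named after its value was seen, had the widest change of the list and was lower (-1.99, edgeR adjusted p = 0.0156). Without parental replicate 2, 3 or 4, or Axin1-labelled replicate 3 or 4, the list gave 3 higher and 0 or 1 lower. Summed, these non-histone genes read 342.7 to 406.8 CPM in the parental and 446.2 to 540.8 in the Axin1-labelled libraries, without overlap. On chromosome 6 without the members, 96 of 743 tested genes were higher and 38 lower, with a median log2 fold change of 0.18. The median was 0.30 over the 15 tested genes in the 5 Mb before the span, 0.02 over the 128 in the 5 Mb after it, and 0.20 over the 562 on the rest of the chromosome. The part of this regional difference in the member values was not tested.

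Clustered histone genes at other loci numbered 17, of which 3 were tested and 0 called; their fold changes were positive, with a median of 0.60, and H2BC21 had 0.75 on the log2 scale (edgeR adjusted p = 0.0716). DESeq2 and limma-voom also called 0 of them, and 1 was called on thinned counts. H2BC21 was the gene of these 3 with an unadjusted edgeR p under 0.05 (0.0165). Replication-independent histones, most of which are made throughout the cell cycle from polyadenylated mRNA, gave 1 higher and 1 lower of 11 tested. MACROH2A1, a variant H2A of repressed chromatin, rose from 220.6 to 327.1 CPM (log2 fold change 0.57, edgeR adjusted p = 0.0056). MACROH2A2 fell from 11.1 to 4.11 CPM (log2 fold change -1.41, edgeR adjusted p = 0.0185), and the list's lower call was lost without parental replicate 2 or Axin1-labelled replicate 3 or 4. Per kb of exon, H2AZ1 at 121 CPM was above H2BC12.

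The machinery that makes and removes histone mRNA gave 1 higher and 1 lower of 21 tested, and their median was 0.06 on the log2 scale. LSM11, a subunit of the U7 snRNP that directs cleavage after the stem-loop, rose from 6.22 to 9.61 CPM (log2 fold change 0.63, edgeR adjusted p = 0.0414). EXOSC10, a nuclear exosome nuclease, fell from 140.7 to 102.2 CPM (log2 fold change -0.46, edgeR adjusted p = 0.0169), while SRRT, which links the cap-binding complex to RNA processing, had -0.29 (edgeR adjusted p = 0.116). With no expression filter the list gave 0 higher and 0 lower. It gave 0 higher with the replicate block and without parental replicate 1, 2 or 4 or Axin1-labelled replicate 2, 3 or 4. It gave 0 lower without parental replicate 2 or Axin1-labelled replicate 3 or 4. Of 20 histone chaperones, 1 rose: CHAF1B, of the complex that loads H3 and H4 behind the replication fork, went from 28.8 to 46.5 CPM (log2 fold change 0.69, edgeR adjusted p = 0.0210). CHAF1A had 0.48 (edgeR adjusted p = 0.0516) and ASF1A 0.46 (edgeR adjusted p = 0.0614). No chaperone was called higher without parental replicate 2 or 3 or Axin1-labelled replicate 3 or 4, and 2 were without parental replicate 4 or Axin1-labelled replicate 1.

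Genes of G1/S and DNA replication gave 2 higher of 26 tested, and their median was 0.28 on the log2 scale. POLA1, the catalytic subunit of the polymerase that primes replication, rose from 21.3 to 45.5 CPM (log2 fold change 1.10, edgeR adjusted p = 0.0208), and CDC6, which loads the replicative helicase, from 50.6 to 88.1 CPM (0.80, edgeR adjusted p = 0.0424). E2F1 had 0.37 (edgeR adjusted p = 0.0930). The count of higher genes was 6 without parental replicate 4, 0 without parental replicate 2 or 3 or Axin1-labelled replicate 4, and 1 with the replicate block, with scaling by total count alone, or without Axin1-labelled replicate 1 or 3. Their summed level was 945, 1675, 1543 and 2293 CPM in the parental libraries and 2182, 1617, 1859 and 1864 in the Axin1-labelled ones. The groups overlapped, and parental replicate 1, where H2BC12 and the member sum were lowest, was also lowest here. Other libraries did not follow that order: parental replicate 4 had the highest G1/S sum and a member sum of 67.7 CPM, and Axin1-labelled replicate 2 had the highest member sum and the lowest G1/S sum of its group. The part of this in the histone values was not tested.

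**Figure D5:**
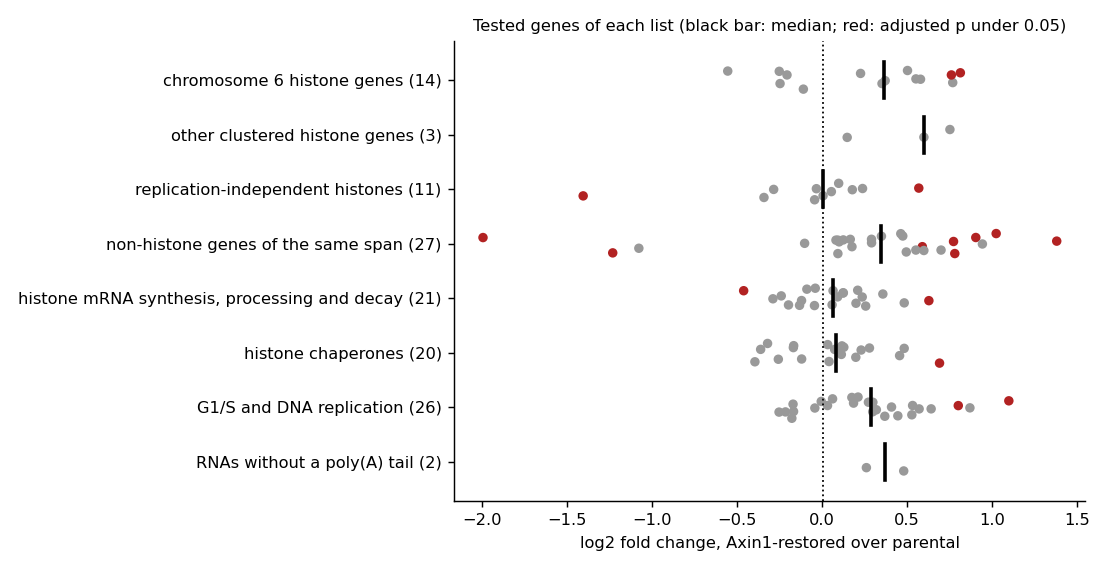
Log2 fold changes of the tested genes in the members and in each of the other lists, with the median of each list. The medians are 0.36 for the members, 0.60 for other clustered histone genes, 0.37 for RNAs without a poly(A) tail, 0.35 for other genes of the span, 0.28 for G1/S genes, 0.08 for chaperones, 0.06 for histone mRNA machinery and 0.005 for replication-independent histones.

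RNAs that lack a poly(A) tail were also read out. Of 14 such genes, 9 had a count, and RMRP, RPPH1, RN7SK, RN7SL1 and SCARNA2 were at 0. They summed to 25.0, 16.3, 12.3 and 9.80 CPM in the parental libraries and 12.7, 24.1, 19.6 and 20.9 in the Axin1-labelled ones, so the groups overlapped. Most of that sum was RN7SL2, a member of a repeated gene family whose close copy RN7SL1 was at 0, with 22.2, 14.7, 11.3 and 7.94 CPM in the parental and 11.05, 19.9, 17.5 and 18.7 in the Axin1-labelled libraries. Axin1-labelled replicate 2, which had the highest member sum and the highest H1-2 level, had the highest value of its group here, and parental replicate 1 the highest of all. SNORD3A (log2 fold change 0.48, edgeR adjusted p = 0.445) and RN7SL2 (0.26, edgeR adjusted p = 0.572) were the tested genes of this list. Their part in the H1-2 value was not tested.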

How the data were processed

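RNA of 8 bulk libraries, 4 parental and 4 labelled Axin1 +, had been sequenced after mRNA library preparation with a KAPA HyperPrep kit, per the labels' protocols. The submitters' processing notes name bcl2fastq, fastp 0.23.1, STAR 2.7.4 and GRCh38. The counting program, gene annotation and use of strand are not given in the sources used here. The authors deposited raw counts per gene for 58206 Ensembl identifiers, with no normalization. Groups were taken from the sample labels.

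Gene names, exons and stop codons came from GENCODE release 29, which named 57943 of the identifiers, and promoter sequences from RefSeq (GRCh38.p14). Genes passing filterByExpr of edgeR 4.0.16 in R 4.3.3 (minimum count 10, minimum total 15) were scaled by the trimmed mean of M values (TMM) and tested with the quasi-likelihood test without covariates. P-values were adjusted by Benjamini and Hochberg's method over the 14289 genes tested, with a threshold of 0.05. CPM used the same TMM-scaled totals, and sums over members took every gene whatever its level. The edgeR fits (plain, with the block and with the offset), limma-voom and DESeq2 were tested on simulated data with known changes. DESeq2 recovered the changes but made more false calls there than the limit set for the self-test, so its counts of calls serve as an alternative only. That limit was then not applied to DESeq2. Intervals are at 95%, and those limits and the floor of 3 counts cover counting error only. The libraries' totals, 11232951 to 26400782 counts, set the smallest level that could be seen. Replicate pairs of 1 group differed by 9.19 to 92.0 times sampling noise (chi-square per degree of freedom), so none was a copy.

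Named members were those past the threshold and, in each family, the 3 with the highest mean CPM per kb of exon and the tested one with the largest fold change; from each other list the 3 genes with the smallest p were named. Members and lists were chosen with earlier results of these data known. The split by annotated end, the blocks along the chromosome, the flanks, and the fits on thinned counts and without both replicates numbered 1 were chosen after seeing the data. Alternatives were other scalings, filters, DESeq2 1.42.0, limma-voom (limma 3.58.1), a replicate block, an offset for GC content and length, a threshold of 0.01, and leaving out each library. Protein sequences were not used here, and 1 gene that the naming rule selects is not reported here.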

Additional observations from a re-analysis of the deposited data

Results flagged for a closer look

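In 50 groups of 4 libraries (19 genes and 6 sums), 4 held a library far from the other 3 by Dixon's test; chance flags about 1 in 20 groups. For H1-2, Axin1-labelled replicate 2 read 23.8 CPM, while the others of its group read 11.6 to 12.9. The summed H1 level followed, with 24.4 CPM in the same library and 12.1 to 13.4 in the others, and it contains H1-2. H1-5 read 0.248 CPM there against 0.143 to 0.156, which rests on 3 counts. For H2BC12, parental replicate 1 read 15.2 CPM, while the others of its group read 24.8 to 25.8.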

How the results depend on the processing

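Over 20 alternatives the fold change of H1-2 ranged from 0.47 to 0.87 and that of H2AC6 from 0.63 to 0.96 on the log2 scale, each losing its call in 9. The 2 members called higher became 1 with limma-voom (H1-2 adjusted p = 0.0713), 0 at an adjusted p under 0.01, 1 with counts thinned to the smallest library (H2AC6 adjusted p = 0.0572), 4 without both replicates numbered 1, and 0 to 1 when any library was left out. The count called lower was 0 except for 1 with the offset for GC content and length (H2BC15), and 0 in each omission. The members' median log2 fold change, 0.36, was 0.54 with no expression filter and 0.28 to 0.51 over the omissions. The log2 ratio of summed H4, 0.08, turned to -0.0068 without parental replicate 3 and -0.0297 without Axin1-labelled replicate 2, and reached 0.21 without Axin1-labelled replicate 1. H4C3 ranged from -0.44 to 0.0058 over the omissions, turning without parental replicate 1, and was 0.15 without both replicates numbered 1. H2BC11 ranged from -0.71 to 0.10 over them, turning to 0.10 without parental replicate 4 and 0.011 without Axin1-labelled replicate 3. The 2738 genes that differed became 964 at an adjusted p under 0.01 and 4623 without both replicates numbered 1, and 1394 (without Axin1-labelled replicate 4) to 3523 (without parental replicate 1) over the omissions, with 1508 without parental replicate 2 and 1531 without Axin1-labelled replicate 3. The cause of these changes was not tested.

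Deviations of same-numbered libraries correlated at -0.063, 0.007, -0.032 and 0.227 across genes. Those of differently numbered libraries ran from -0.425 to 0.448. No pairing by replicate number was seen, but these few values cannot tell whether same-numbered libraries were prepared together. With the replicate block, H1-2 had 0.71 (adjusted p = 0.0465) and H2AC6 0.85 (adjusted p = 0.0491), 2033 genes differed, and no call of a member changed. The expression filter left 14 of the 55 members for testing, and 48 were tested with no filter.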
